A study of Mus musculus with 11 samples.

Results

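The 10 genes described here, Muc2, Tff3, Fcgbp, Zg16, Agr2, Clca1, Spink4, Reg3b, Reg3g and Sycn, encode products of goblet cells and other secretory epithelia, and were read out in RNA sequencing of sorted colonic macrophages. They were selected by gene symbol, and each symbol stood on 1 of the 23282 rows of every count file. They were chosen after higher values of epithelial genes at day 39 had been seen in these same libraries. Differences between days are therefore given as descriptions without a test.

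The libraries came from mouse colon cells sorted as CD45+ CD11b+ Ly6G- Ly6C- MHCII+ CD64+, a surface pattern of tissue macrophages, in which goblet cell genes are not usually expressed. All groups carry the same treatment note, 2.5% dextran sodium sulphate (DSS) in the drinking water over 5 days, which injures the colon lining and models colitis. The titles separate 2 days of the course, day 0 and day 39, and 2 strains, wild type (WT) and Csf1r-EP4-/-, here called KO, which lacks the prostaglandin E2 receptor EP4, encoded by Ptger4, per its name. The 4 groups were day 0 KO (3 libraries), day 0 WT (2 libraries), day 39 KO (3 libraries) and day 39 WT (3 libraries), 11 libraries in all. The column headers of the day 39 files read day 35, and that of day 0 WT library 2 carries the number 3; the titles were followed. The labels give neither the age or sex of the mice nor how many were pooled in a library, and they do not name the driver of the deletion beyond the strain name. Whether libraries came from separate animals is not stated, so p-values measure only the spread between these libraries.

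Goblet cells fill their granules with the gel-forming mucin Muc2, which swells on release into the mucus layer of the colon. Other products are packed or bound with it, among them trefoil peptides, mucus-bound proteins and lectins that keep bacteria away from the surface. The Reg3 lectins are made by enterocytes and Paneth cells as well as goblet cells, and in the gut they are known to be raised by microbes and by interleukin 22.

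Library totals ranged from 4003299 to 14207919 counts, and a level of 3 counts, used here as the floor of detection, corresponded to 0.196 to 0.911 CPM (the count scaled to a common library size after TMM normalization). These floors take in the error of counting alone, since copies made by PCR are not separate molecules. Replicates differed widely: over the 6987 genes tested, the common coefficient of variation between replicates was 2.48. Ptger4, the check of the genotype labels, had 1350, 0 and 890 counts in day 0 KO, 0 and 0 in day 0 WT, 1, 8 and 4501 in day 39 KO and 1481, 152 and 7286 in day 39 WT. The libraries labelled day 0 KO numbers 1 and 3 and day 39 KO number 3 thus held at least 890 Ptger4 counts, and both libraries of day 0 WT, the whole group, held none. The kit reads the 3′ end of a transcript, and the labels do not say which part of the gene is deleted, so counts in a KO library do not by themselves contradict its label. KO and WT below mean the label alone. All 15 macrophage and sort markers on the list had counts in at least 1 library, and their summed level was 13230 to 57044 CPM in day 0 KO, 36734 to 37112 CPM in day 0 WT, 19139 to 28974 CPM in day 39 KO and 24099 to 35925 CPM in day 39 WT. H2-Aa and H2-Ab1, the class II genes with the highest mean levels on that list, averaged 9903 and 6249.9 CPM over the 11 libraries.

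All 10 genes had a count in at least 4 libraries, and all 10 passed the expression filter. Most values were either near 0 or high. Of 110 values (10 genes in 11 libraries), 33 were 0, 21 lay between 1 and 10 counts, 4 between these and 100, and 52 were at least 100 counts. At day 0, 12 of 50 values (24.0%) reached 100 counts, and at day 39 40 of 60 values (66.7%) did. Over all tested genes the corresponding shares were 35.5% and 36.8%. In such bulk RNA, fewer cells of the type that makes a transcript and less of it per cell cannot be told apart, and which cells these transcripts came from was not tested.

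**Figure D1:**
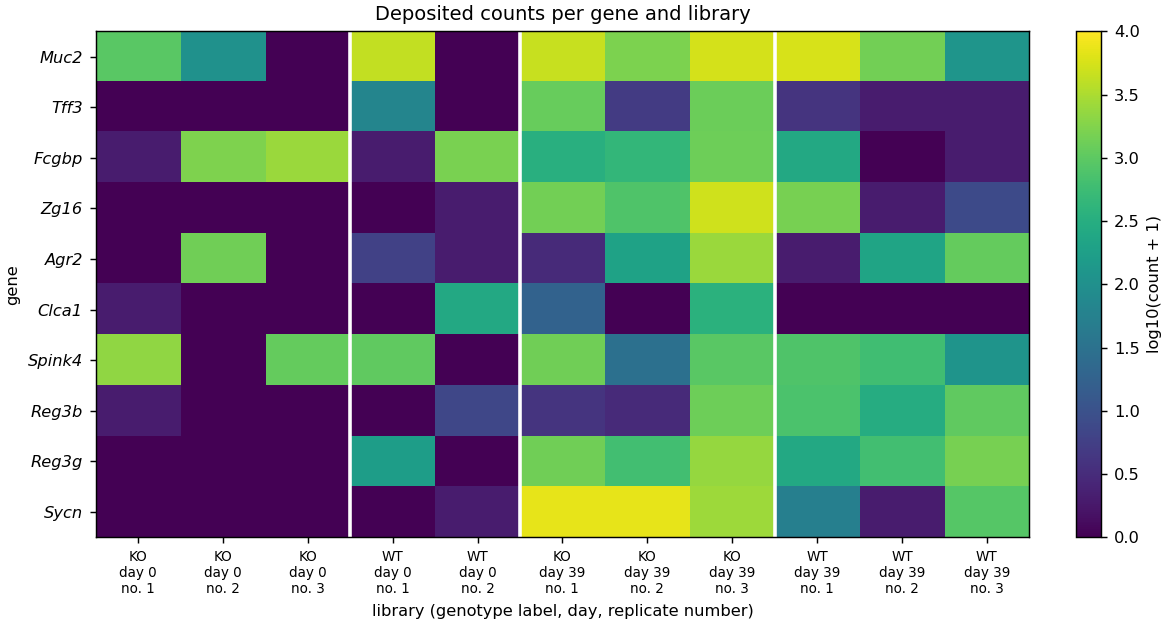
Deposited counts of the 10 genes (rows) in the 11 libraries (columns, by genotype label, day and library number), coloured by log10(count + 1). Dark cells hold 0 or few counts; 28 of the 50 day 0 values are 0, against 5 of the 60 day 39 values.

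The summed level of the 10 genes was 499.8, 405 and 234 CPM in the 3 libraries of day 0 KO, and 984 and 429.5 CPM in day 0 WT. In day 39 KO it was 4455, 2114 and 6757 CPM, and in day 39 WT it was 2817, 574 and 1058 CPM. Every day 39 KO library lay above every day 0 library of either label, while the lowest day 39 WT library lay below the higher day 0 WT library. The mean in KO was 11.7-fold higher at day 39 (4442 CPM ± 2321, SD, n = 3, against 379.7 CPM ± 135, n = 3), and this ratio stayed between 8.65 and 14.8 when any 1 KO library was left out. Without the 3 KO libraries with at least 890 Ptger4 counts it was 8.10. In the same KO libraries the summed level of 6 skeletal muscle genes was lower at day 39, with a mean of 2749 CPM ± 416 (SD, n = 3) against 11863 CPM ± 8869 (n = 3), and its part in the ratio was not tested. In WT the mean was 2.10-fold higher at day 39 (1483 CPM ± 1180, n = 3, against 707 CPM ± 392, n = 2), but the ratio was 0.704 under upper-quartile scaling, 1.15 without day 39 WT library 1 and 3.45 without day 0 WT library 1. As a share of all counts the 10 genes made up 0.0252% to 0.127% of the day 0 libraries and 0.0650% to 0.499% of the day 39 libraries.

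Markers of absorptive colonocytes and of epithelium in general moved with this sum. Of 16 such genes, none was at 0 in all libraries, and their summed level was 89.6 to 2046 CPM in day 0 KO, 161 to 1918 CPM in day 0 WT, 4564 to 11353 CPM in day 39 KO and 2213 to 7946 CPM in day 39 WT. Here the groups of the 2 days did not overlap. Car1, a carbonic anhydrase of colonocytes, averaged 121 CPM ± 209 (SD, n = 3) in day 0 KO and 1267 CPM ± 1201 (n = 3) in day 39 KO, and Ceacam1, an adhesion molecule, averaged 313 CPM ± 367 and 735 CPM ± 175 in the same groups. The part of such cells in the values of the 10 genes was not tested. In individual libraries the sums did not run in parallel throughout: day 0 KO library 1 held 2046 CPM of colonocyte markers and 499.8 CPM of the 10 genes, and day 0 WT library 1 held 161 CPM and 984 CPM.

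**Figure D2:**
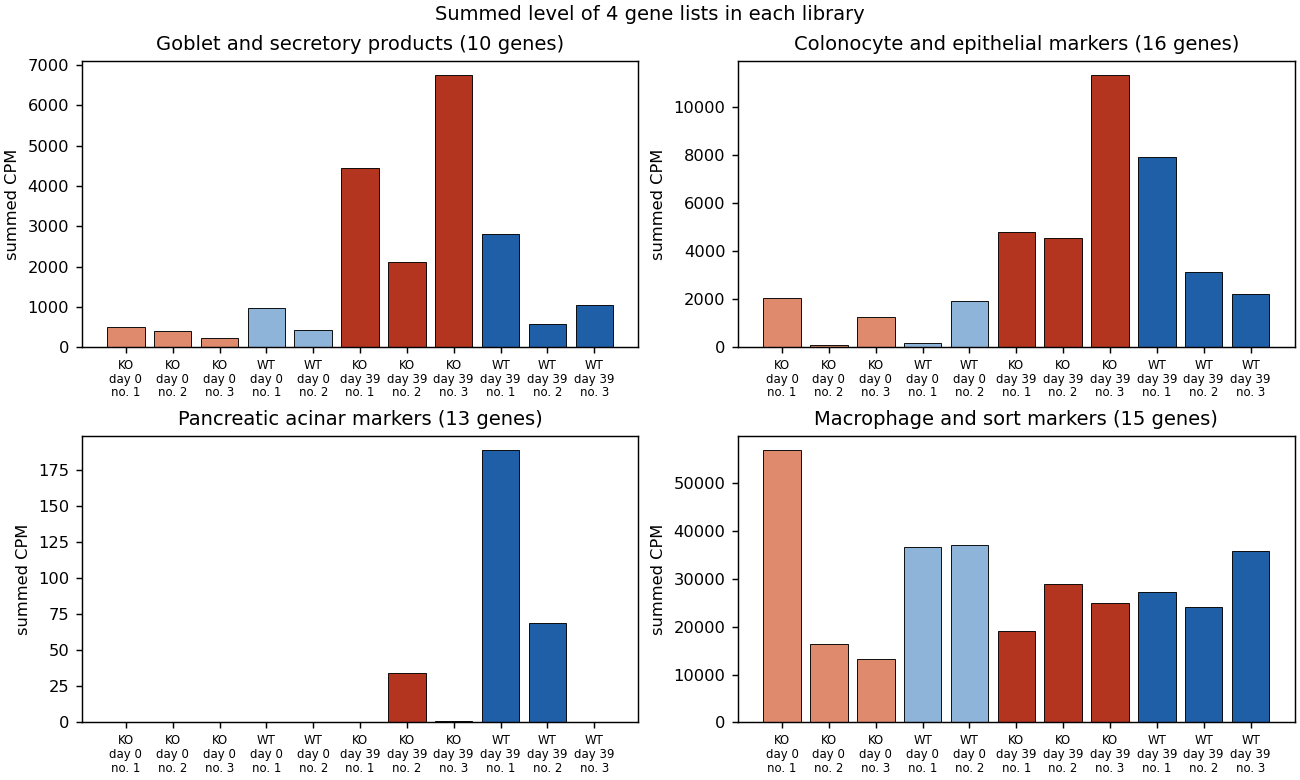
Summed CPM (y axes, linear from 0) per library (x axes) for the 10 goblet and secretory product genes, 16 colonocyte and epithelial markers, 13 pancreatic acinar markers and 15 macrophage and sort markers. The 10 genes reach 2114 to 6757 CPM in day 39 KO and at most 984 CPM at day 0, while the macrophage markers span 13230 to 57044 CPM at day 0 and 19139 to 35925 CPM at day 39, with both day 0 WT libraries above every day 39 library.

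Muc2, the gel-forming mucin, was the member with at least 100 counts in the most libraries, 9 of 11. It had 959, 105 and 0 counts in day 0 KO, 4225 and 0 in day 0 WT, 4539, 1631 and 5534 in day 39 KO and 5674, 1386 and 121 in day 39 WT. Every day 39 KO library was above every day 0 KO library, and the WT groups overlapped. Mean Muc2 levels were 1030.3 CPM ± 648 (SD, n = 3) in day 39 KO, 668 CPM ± 920 (n = 3) in day 39 WT, 377 CPM ± 534 (n = 2) in day 0 WT and 55.9 CPM ± 85.3 (n = 3) in day 0 KO. The neighbours in this order differed by less than their spread. The KO mean was 18.4-fold higher at day 39, and 152.6-fold higher without day 0 KO library 1, which held most of the day 0 counts. The WT mean was 1.77-fold higher, but lower at day 39 under upper-quartile scaling, without day 39 WT library 1 (141 against 377 CPM) and without day 0 WT library 2 (668 against 755 CPM).

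The 180 bases before the Muc2 start site are shown because this gene was the most widely detected of the 10. The sequence is from RefSeq on GRCm38.p6, chr7:141690160-141690339, plus strand. Capitals mark 2 motifs, each searched on both strands. One is the TATA box, searched as TATAAA. The other is the binding motif of GATA factors, searched as AGATAA.

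Muc2: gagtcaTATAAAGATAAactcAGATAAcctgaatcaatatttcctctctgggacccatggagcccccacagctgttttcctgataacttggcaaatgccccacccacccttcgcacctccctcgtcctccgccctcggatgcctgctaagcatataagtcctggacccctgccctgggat

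In Muc2 the TATAAA, 174 bases before the start, overlaps the first AGATAA, 169 bases before it, and a second AGATAA lies 159 bases before it. RefSeq promoter sequences were matched for 6 of the 10 genes. Within 250 bases before the start, TATAAA was found in 3 of these 6 and in 12.4% of 32851 promoters, and AGATAA in 2 of 6 and in 9.99% of promoters. A match describes letters and not a bound site.

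The mucus-bound proteins showed 3 different patterns. Fcgbp, a large protein of the mucus that carries von Willebrand domains, had 1, 1689 and 2461 counts in day 0 KO and 1 and 1558 in day 0 WT, so it was already high in 3 of 5 day 0 libraries. It had 327, 439 and 1298 counts in day 39 KO and 255, 0 and 1 in day 39 WT. Fcgbp was the member whose mean differed least between days in KO (1.44-fold, 182 against 126 CPM), and its KO mean was lower at day 39 without day 39 KO library 3 (85.7 CPM) or without day 0 KO library 1 (189 CPM at day 0). In WT its mean was lower at day 39, 25.9 CPM ± 44.6 (n = 3) against 184 CPM ± 259 (n = 2). Its count is uncertain: it overlaps Gm21925 in RefSeq, and the last 300 bases of its transcript share a run of at least 50 bases with 9530053A07Rik, which had 1094 counts in day 0 KO library 3, 1639 in day 0 WT library 2 and 657 in day 39 KO library 3. No other member shared such a run with another gene of the GENCODE M21 transcripts.

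Zg16, a lectin-like protein that binds Gram-positive bacteria in mucus, had 0 counts in all 3 libraries of day 0 KO and 0 and 1 in day 0 WT. It had 1399, 778 and 5215 counts in day 39 KO and 1501, 1 and 7 in day 39 WT. All day 39 KO libraries were far above day 0, whereas in WT a single library was. The day 39 KO mean of 673 CPM ± 726 (SD, n = 3) exceeded day 0 KO at least 1897-fold, with each library there set to its floor of 3 counts. Day 39 KO library 3 (1503 CPM) carried most of this mean, with libraries 1 and 2 at 362 and 154 CPM. In WT the single library with 1501 counts carried the day 39 mean of 152 CPM ± 263 (n = 3).

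Clca1, a metalloprotease secreted into mucus, was the sparsest of the 10, with 0 counts in 7 of 11 libraries. It had 1, 0 and 0 counts in day 0 KO, 0 and 256 in day 0 WT, 17, 0 and 354 in day 39 KO and 0 in all 3 libraries of day 39 WT. The libraries with over 100 counts, day 0 WT library 2 and day 39 KO library 3, also had Fcgbp at 1558 and 1298 counts. A count of 0 in day 39 WT allows a level of up to 0.552 to 0.911 CPM in a library.

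Tff3, a trefoil peptide of goblet granules that aids repair of the surface, had no count in day 0 KO and 66 and 0 in day 0 WT. It had 1157, 4 and 1271 counts in day 39 KO and 3, 1 and 1 in day 39 WT. It was high in 2 of 11 libraries, both labelled day 39 KO, where library 2 had hardly more than the floor. The day 39 KO mean was 222 CPM ± 195 (SD, n = 3), at least 626-fold higher than the day 0 KO floor, while the day 39 WT mean of 0.438 CPM ± 0.410 (n = 3) was below the day 0 WT mean of 5.90 CPM ± 8.34 (n = 2).

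Agr2, a protein disulphide isomerase of the endoplasmic reticulum needed to make Muc2, had 0, 1358 and 0 counts in day 0 KO, 5 and 1 in day 0 WT, 2, 204 and 2518 in day 39 KO and 1, 218 and 1135 in day 39 WT. One day 0 KO library was above 2 of the 3 day 39 KO libraries in CPM, so the groups overlapped. Its mean was 4.39-fold higher at day 39 in KO, but lower without day 39 KO library 3 (20.4 against 58.2 CPM). In WT it was 96.3 CPM ± 133 (n = 3) at day 39 and 0.564 CPM ± 0.465 (n = 2) at day 0, where the 6 counts of the group amount to its floor and no fold is given. Agr2 and Muc2 did not go together in every library: Agr2 had 1358 counts where Muc2 had 105 (day 0 KO library 2), and 2 counts where Muc2 had 4539 (day 39 KO library 1).

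Spink4, a Kazal-type protease inhibitor secreted by goblet cells, did not follow the day. It had 2148, 0 and 1115 counts in day 0 KO, 1042 and 0 in day 0 WT, 1340, 29 and 947 in day 39 KO and 802, 598 and 116 in day 39 WT. The groups of the 2 days overlapped for both labels. Means were 139 CPM ± 182 (SD, n = 3) in day 0 KO, 93.1 CPM ± 132 (n = 2) in day 0 WT, 208 CPM ± 179 (n = 3) in day 39 KO and 126 CPM ± 110 (n = 3) in day 39 WT, all within the spread of each other, and for both labels the order of the days turned without some single libraries.

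Of the secreted C-type lectins, Reg3g was high in all 6 day 39 libraries and Reg3b in 4 of them. Reg3g, which binds the peptidoglycan of Gram-positive bacteria, had no count in day 0 KO and 168 and 0 in day 0 WT. It had 1334, 611 and 2361 counts in day 39 KO and 255, 616 and 1523 in day 39 WT. Reg3g was the one member for which every day 39 library of both labels lay above every day 0 library in CPM. With the labels pooled, 1.6% of tested genes showed this. Its mean was 382 CPM ± 282 (SD, n = 3) in day 39 KO, at least 1077-fold higher than the day 0 KO floor, and 175 CPM ± 139 (n = 3) in day 39 WT. The WT mean was 11.6-fold higher than at day 0, 5.82-fold without day 0 WT library 2 and 6.35-fold without day 39 WT library 3, and no ratio is given without day 0 WT library 1, which held all 168 counts.

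Reg3b, its neighbour on chromosome 6, had 1, 0 and 0 counts in day 0 KO and 0 and 6 in day 0 WT. It had 3, 2 and 1321 counts in day 39 KO and 736, 299 and 1057 in day 39 WT. In WT it was high in all 3 day 39 libraries, and in KO in 1 of 3, the day 39 KO library with 4501 Ptger4 counts. The means were 169.97 CPM ± 99.7 (SD, n = 3) in day 39 WT, against 0.707 CPM ± 0.9997 (n = 2) in day 0 WT, where 1 library held all 6 counts, and 127 CPM ± 219 (n = 3) in day 39 KO. In day 39 KO libraries 1 and 2 Reg3g had 1334 and 611 counts beside 3 and 2 of Reg3b, so the 2 lectins did not go together there.

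The sequences before the start sites of Reg3b and Reg3g are shown because these 2 neighbouring lectins were the members whose days did not overlap in WT. They are from RefSeq on GRCm38.p6, 180 bases each, at chr6:78370705-78370884 (plus strand) for Reg3b and chr6:78468875-78469054 (minus strand) for Reg3g. Capitals mark TATAAA and TTCNNNGAA (a STAT motif, N being any base), each searched on both strands.

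Reg3b: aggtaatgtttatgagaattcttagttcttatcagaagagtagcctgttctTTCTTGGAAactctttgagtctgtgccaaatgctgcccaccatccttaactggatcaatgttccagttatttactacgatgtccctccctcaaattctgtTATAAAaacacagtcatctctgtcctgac

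Reg3g: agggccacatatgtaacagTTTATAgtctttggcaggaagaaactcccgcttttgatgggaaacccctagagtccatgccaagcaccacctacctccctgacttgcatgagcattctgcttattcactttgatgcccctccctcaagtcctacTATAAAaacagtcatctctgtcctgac

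The 2 stretches were 67.6% identical in a global alignment, and the other 14 pairs of member promoters 46.7% to 53.8%. Both hold a TATAAA close to the start, 29 bases before it in Reg3b and 27 in Reg3g, and Reg3g has a second on the other strand 161 bases before it. TTCNNNGAA was found in Reg3b alone of the 6, 129 bases before the start, and in 7.02% of all promoters. The ends of the 2 transcripts, from which the reads of this kit come, were less alike: the last 300 bases were 58.2% identical with a longest shared run of 17 bases.

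Sycn encodes syncollin, a protein of secretory granules best known from zymogen granules of the pancreatic acinar cell. It had no count in day 0 KO and 0 and 1 in day 0 WT. It had 7106, 7001 and 2631 counts in day 39 KO and 52, 1 and 871 in day 39 WT. Every day 39 KO library was above every other library of the series. The day 39 KO mean was 1326 CPM ± 542 (SD, n = 3), at least 3739-fold higher than the day 0 KO floor, and the day 39 WT mean was 68.9 CPM ± 106 (n = 3).

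Digestive enzymes and granule proteins of the pancreas were looked up beside Sycn. Of 13 such genes listed in the files, 12, among them Prss2, Cpa1, Ctrb1, Pnlip and Gp2, were at 0 in all 11 libraries. The remaining gene, Cela1, an elastase, had no count at day 0, 2, 173 and 3 counts in day 39 KO and 623, 374 and 0 in day 39 WT. In day 39 KO library 1, where Sycn had 7106 counts, Cela1 had 2. The Sycn sequence, from RefSeq on GRCm38.p6, chr7:28540705-28540884, plus strand, is shown because it belongs to the gene with the largest lower bound between days, and the capitals mark AGATAA read on the other strand, 44 bases before the start.

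Sycn: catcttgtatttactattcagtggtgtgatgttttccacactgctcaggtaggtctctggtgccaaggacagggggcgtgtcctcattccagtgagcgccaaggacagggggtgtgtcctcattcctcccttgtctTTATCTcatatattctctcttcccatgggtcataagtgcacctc

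**Figure D3:**
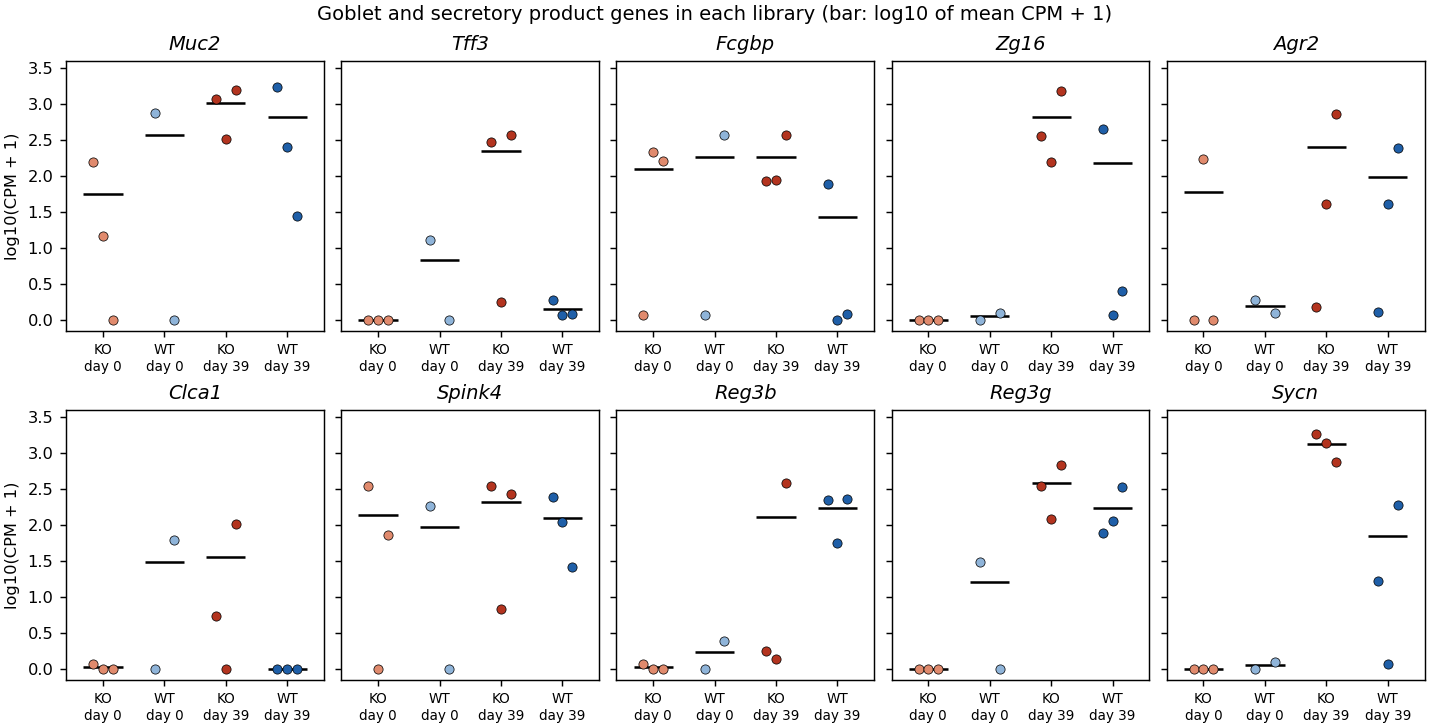
log10(CPM + 1) of each of the 10 genes (panels) in each library (points), by genotype label and day, with the group mean as a bar. Reg3g, Zg16 and Sycn have 0 CPM in all 3 day 0 KO libraries and values in all 3 day 39 KO libraries, while Spink4 and Fcgbp spread over the same range at both days.

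Read as a set, 10 of 10 means were higher at day 39 than at day 0 in KO under all 4 scalings, where 49.2% of tested genes had a higher mean, although for Fcgbp, Agr2 and Spink4 the direction turned without 1 or another library. In WT 7 of 10 were higher against 61.8% of tested genes, with 6 under library-size scaling and 5 under upper-quartile scaling. Groups did not overlap, day 39 being above day 0, for 6 of the 10 in KO (Muc2, Tff3, Zg16, Reg3b, Reg3g and Sycn), where 8.07% of tested genes did the same, and for 2 of the 10 in WT (Reg3b and Reg3g), where 12.7% did. The members were chosen knowing this direction, so the counts are no evidence for it. The count in KO was 6 or 7 without any 1 library, and in WT it was 6 without day 0 WT library 1, and 4 without day 0 WT library 2, without day 39 WT library 2 or under library-size scaling. Without either day 0 WT library, a single day 0 library is left to exceed. The share of tested genes was not worked out for these alternatives, so their counts are not read against 12.7%. For Reg3b and Tff3 in KO the separation rests in part on 2 to 4 counts.

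The genotype contrasts ask whether these transcripts differed between the labels on the same day. At day 39, 9 of the 10 fitted log2 fold changes were above 0, with a median of 1.77 (also with Clca1 at its lower bound) against 0 over all 6987 tested genes. The members were chosen with values of these same day 39 libraries known, so this count and median are no evidence of a difference between the labels. None of the 10 passed (edgeR, 0 of 10 at an adjusted p under 0.05, where 0.0286% of tested genes passed). At an unadjusted p under 0.05 there was 1 of 10, Clca1, against 7.28% of tested genes. DESeq2 called 1 of the 9 members to which it gave an adjusted p, Tff3, where it called 13.1% of genes with one. Clca1 had 0 counts in day 39 WT, so its mean of 35.5 CPM ± 57.7 (n = 3) in KO was at least 50.2-fold higher, with WT set to its floor, and came mostly from 1 library of 354 counts. For Sycn the fitted log2 difference was 4.27 ± 2.27 (SE) with an adjusted p of 0.491 in edgeR, and it had all 3 KO libraries above all 3 WT libraries and a ratio of means of 19.2. Tff3 had 8.93 ± 5.23 (edgeR adjusted p = 0.491), no measured size since the 5 WT counts lie under the floor, with 2 of 3 KO libraries far above WT and the other one at 0.790 CPM, below the highest WT library at 0.911 CPM.

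For the other members the difference at day 39 was well within its error. Fcgbp had a log2 fold change of 2.81 ± 3.53 (SE), Zg16 of 2.14 ± 2.76, Agr2 of 1.41 ± 3.46, Reg3g of 1.13 ± 3.12, Spink4 of 0.72 ± 3.16, Muc2 of 0.63 ± 1.63 and Reg3b of -0.42 ± 3.61, with edgeR adjusted p-values of 0.864 or more. KO and WT libraries at day 39 did not overlap for 2 of the 10, Fcgbp and Sycn, KO being above, where 3.41% of tested genes did this, and for 0 of the 10 with KO below, where 3.99% did. For Fcgbp the gap was narrow, from 77.4 CPM in the highest WT to 84.6 CPM in the lowest KO library. Leaving out 1 library moved most of these values. Zg16 ran from 0.75 without day 39 KO library 3 to 9.45 without day 39 WT library 1, its single high WT library. Muc2 ran from 0.064 without day 39 WT library 3 to 2.77 without day 39 WT library 1. Sycn ran from 3.55 without day 39 WT library 2 to 7.38 without day 39 WT library 3, and was above 0 in each of these fits. Fcgbp ran from 1.72, without day 39 KO library 3, to 3.30, with no value without day 39 WT library 1, which held 255 of the 256 WT counts. Reg3g ran from 0.41 without day 39 KO library 3 to 2.005 without day 39 WT library 3, and Spink4 from 0.20 without day 39 KO library 1 to 1.504 without day 39 WT library 1. The fits ran from -2.24 without day 39 KO library 3 to 3.66 without day 39 WT library 3 for Agr2, and from -8.14 to 0.18 for Reg3b, at -8.14 without that same library and above 0 without day 39 KO library 1 or 2.

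At day 0 most members had too few counts for a fold change. Of the 10 fitted log2 fold changes 2 were above 0, the opposite of day 39. Their median was -2.71 against 1.08 over all tested genes, with many groups at or near 0 counts. None of the 10 passed (edgeR, 0 of 10 at an adjusted p under 0.05, where 0.0143% of tested genes did), and 1 of 10, Reg3g, had an unadjusted p under 0.05 against 7.99% of tested genes. DESeq2 called 3 of 9 members with an adjusted p, where it called 29.3% of genes with one. KO libraries were below all WT libraries for 0 of the 10, where 5.25% of tested genes were. All members but Fcgbp and Agr2 had 0 counts in a day 0 WT library, so for them this outcome was fixed. The fitted log2 fold changes were -2.76 ± 1.83 (SE) for Muc2, -0.54 ± 3.65 for Fcgbp, 6.63 ± 5.22 for Agr2, whose WT group was at its floor so that the value is no measured size, and 0.58 ± 3.57 for Spink4, none of which passed. For Muc2, day 0 WT library 1 held all 4225 counts of its group, so without it WT has no count and no fold is given; the other fits without 1 library gave -5.81 to -2.09. For Agr2 a single library decided the value, since day 0 KO library 2 held all 1358 counts of the group. Reg3g had 168 counts in a single day 0 WT library and none in KO.

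The interaction asks whether the change between days differed between the labels, and it shares the day contrast by which the members were chosen. None of the 10 passed (edgeR, 0 of 10, where 0.0% of tested genes passed; smallest adjusted p over the 10, 0.324). At an unadjusted p under 0.05 there were 4 of 10, Tff3, Clca1, Reg3g and Sycn, against 14.4% of tested genes. DESeq2 called 4 of 9 members with an adjusted p, where it called 22.5% of genes with one. That 6 members separated the days in KO and 2 in WT is thus not shown to be a difference between the labels.

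**Figure D4:**
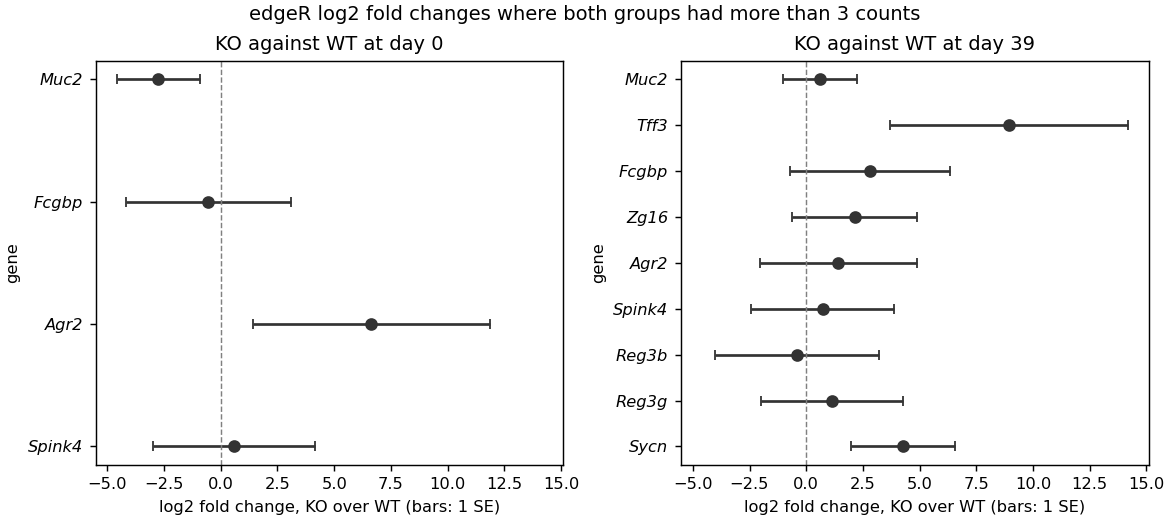
edgeR log2 fold changes of KO over WT (x axes, points, bars 1 SE) at day 0 and at day 39 for members with more than 3 counts in both groups. None passed the threshold. At day 39 Sycn (4.27) and Tff3 (8.93) lie farthest above 0. The values of Tff3 at day 39 and Agr2 at day 0 are no measured sizes, since their WT counts were at or under the floor.

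Across the 11 libraries the members formed neither 1 block nor independent genes. Spearman correlations between members had a median of 0.401 over 45 pairs, 41 of them above 0, and ranged from -0.351 (Fcgbp with Spink4) to 0.895 (Zg16 with Sycn). Muc2 with Tff3 (0.881), Reg3g with Sycn (0.840) and Tff3 with Reg3g (0.838) followed. These points share library depth, day and many values of 0, and are given as a description. day 39 KO library 3 was the one library in which all 10 genes had at least 100 counts, and the others had 2 or 3 at day 0 and 5 to 7 at day 39.

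The 5 other genes whose levels were most like the summed level of the 10 were Malat1 (Spearman 0.955 over 11 libraries), Sprr2a2 (0.945), Phgr1 (0.945), Ppp1r1b (0.936) and Ubxn4 (0.918), out of 2084 tested genes with a mean of at least 100 CPM. Phgr1, a gene of gut epithelium, had 8, 0 and 0 counts in day 0 KO, 51 and 0 in day 0 WT, 2719, 756 and 8328 in day 39 KO and 1069, 1281 and 1258 in day 39 WT. Malat1, a nuclear noncoding RNA, ran from 10923 CPM in day 0 KO to 46411 CPM in day 39 KO library 3. Sprr2a2 belongs to a family of close copies, and its count is uncertain.

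Other goblet cell genes were followed on lists chosen with earlier results of these data known. Of 19 other goblet products and surface mucins, 17 were listed, 7 were tested and none passed in the genotype contrasts or the interaction. At day 39, 3 of these 7 had a fitted log2 fold change of KO over WT above 0, with a median of -0.46. For the members it was 9 of 10 with a median of 1.77, so the other goblet products did not share that direction. Muc1, Muc5ac, Muc5b, Tff1 and Tff2 were at 0 in every library. Muc13, a transmembrane mucin, had 2689, 0 and 0 counts in day 0 KO, 1432 and 0 in day 0 WT, 1659, 1525 and 1296 in day 39 KO and 4820, 250 and 20 in day 39 WT. Guca2a, the peptide guanylin, had no count in day 0 KO and 0 and 51 in day 0 WT. At day 39 it had 500, 3170 and 4321 counts in KO and 886, 223 and 3 in WT, where the labels overlapped.

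Transcription and endoplasmic reticulum factors of goblet cells were mostly not tested (6 of 14 tested, 0 called in any tested contrast), and Foxa1, Creb3l4 and Agr3 were at 0 throughout. At day 39, 2 of the 6 tested had a fitted log2 fold change of KO over WT above 0, with a median of -0.98. Hspa5, a chaperone that macrophages also express, averaged 1174 CPM ± 279.7 (SD, n = 3) in day 0 KO, 736 CPM ± 110.4 (n = 2) in day 0 WT, 1201 CPM ± 694 (n = 3) in day 39 KO and 1606 CPM ± 1178 (n = 3) in day 39 WT. Klf4, a factor of goblet cell maturation that monocytes and macrophages use as well, averaged 84.1 CPM ± 72.4 and 271 CPM ± 381 at day 0 and 962 CPM ± 199 and 591 CPM ± 529 at day 39 in KO and WT. Of 12 enzymes of mucin O-glycosylation 2 were tested and 0 called. Galnt7, which adds N-acetylgalactosamine, averaged 23.2 CPM ± 40.2 and 36.4 CPM ± 51.1 at day 0 and 307 CPM ± 352 and 336 CPM ± 347 at day 39, while Gcnt1, a branching enzyme, had 970 counts in day 39 WT library 2 and at most 3 elsewhere.

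Among 12 other regenerating-family and antimicrobial products of gut epithelium, 4 were tested and 0 called. Reg1, Reg2, Reg3a, Reg3d, Ang4 and Itln1 were at 0 in every library, so of the Reg3 genes looked up Reg3b and Reg3g alone had counts. Lypd8, a surface protein of colonocytes that holds back flagellated bacteria, averaged 201 CPM ± 331 (SD, n = 3) in day 0 KO, 325 CPM ± 123 (n = 2) in day 0 WT, 1339.7 CPM ± 1074 (n = 3) in day 39 KO and 1451 CPM ± 853 (n = 3) in day 39 WT. Pigr, which carries immunoglobulin A across the epithelium, had 2407, 1 and 14 counts in day 0 KO, 0 and 1 in day 0 WT, 2715, 3176 and 5002 in day 39 KO and 5114, 125 and 2406 in day 39 WT. Of 10 enteroendocrine and tuft cell markers 2 were tested and 0 called; Chga had 1717 counts in day 0 KO library 2 and 662 in day 39 KO library 2, and Pyy had 1755 in day 0 WT library 1, with at most 22 counts of either elsewhere.

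Markers of other cell types were also present, although the stated gate selects against them: Ly6G- leaves out neutrophils, CD45+ leaves out fibroblasts, muscle and epithelium, and CD11b+ CD64+ leaves out most B and plasma cells. Of the neutrophil, B and plasma cell, fibroblast and colonocyte markers 0 passed in a tested contrast, and of 6 skeletal muscle genes 2, Tnnc2 and Pvalb, were lower in KO at day 39 (edgeR adjusted p = 0.00953 and 0.0144). They were the only genes called at day 39. No gene was called there with upper-quartile scaling, either other filter or just the 2 groups fitted. The same held without the 3 KO libraries with at least 890 Ptger4 counts and without some single libraries, among them day 39 KO library 1 or 2. Summed levels per library were 3035 to 20712 CPM at day 0 and 5282 to 10633 CPM at day 39 for 6 fibroblast genes, led by Col1a1 and Col1a2 at means of 3569 and 2821 CPM. The muscle genes summed to 1637 to 17465 CPM in day 0 KO, 1432 to 5559 CPM in day 0 WT, 2461 to 3225 CPM in day 39 KO and 2269 to 12728 CPM in day 39 WT. Their means were higher at day 39 for 0 of 6 genes in KO and for 5 of 6 in WT. Neutrophil markers, with Elane, Mpo, Camp and Ngp at 0, summed to at most 0.942 CPM at day 0 and 236 CPM at day 39, the highest in day 39 KO library 1, which held 886 counts of S100a9; S100a8 had 666 counts in day 39 WT library 3. B and plasma cell markers, with Cd79a and Ms4a1 at 0, summed to at most 210.5 CPM, in day 0 WT library 1, which held 1178 counts of Jchain. The part of these cells in the values of the 10 genes was not tested.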

How the data were processed

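The authors deposited 1 table of whole-number counts per gene symbol for each of the 11 libraries. Per the labels' protocols, Trizol was used to extract the RNA, and a Lexogen QuantSeq kit, which reads the 3′ ends of transcripts, to build the libraries. Bowtie2, edgeR and the genome build hg19 are named in the submitters' processing notes, with no role given; hg19 is a human build, while the symbols are those of mouse genes, so the build behind the counts is unclear and no count is tied to coordinates. Annotation, filters, strand setting and the use of molecular identifiers are not given in the sources used here. Counts were fitted with edgeR 4.0.16 in R 4.3.3 (filterByExpr, TMM, robust quasi-likelihood test, 1 coefficient per group, all 11 libraries, 6987 genes tested and 16295 not tested), with Benjamini-Hochberg adjustment over all tested genes and a two-sided threshold of 0.05. Standard errors were derived from each log2 fold change and its F statistic. A fold change is given for groups with more than 3 counts, a lower bound where a group was at 0, taken against the mean of its libraries' floors of 3 counts each, and otherwise none. Agr2 and Reg3b in day 0 WT and Tff3 in day 39 WT had counts at or under their floors. Their folds were left out or marked as no measured size. The procedure was also run on simulated counts with known changes. Its recovery of them is not given here, so it says nothing about the power to call a member.

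Members and gene lists were chosen with earlier results of these data known. Named are all members, the 2 genes of each other list with the highest mean CPM (of the pancreatic list 1, since the rest were at 0), list genes past the threshold, and the 5 genes with the highest Spearman correlation with the members' sum. Alternatives tried were the DESeq2 1.42.0 test, scaling by its size factors, by upper quartile or by library size alone, filtering by a mean count of 10 or not at all, fitting just the groups of a contrast, a replicate block, each library left out, and the 3 KO libraries with at least 890 Ptger4 counts left out. Sequences are from RefSeq (GRCm38.p6) and GENCODE M21, aligned with Biopython 1.88. No 2 libraries held like values: at most 0.0869% of values were equal in any pair, among genes with at least 100 counts in the pair together.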

Additional observations from a re-analysis of the deposited data

How the results depend on the processing

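In the edgeR fits no member passed in any tested contrast under any alternative. With DESeq2, 3 members were called at day 0 (Tff3, Zg16 and Reg3g, with Zg16 at 1 count in all), 1 at day 39 (Tff3) and 4 in the interaction (Tff3, Zg16, Clca1 and Reg3g). Over all genes DESeq2 called 1241, 555 and 934, of 4236, 4236 and 4160 genes with an adjusted p. The edgeR count at day 0 was 1, and 0 with plain library sizes, with the replicate block, without a filter, with a mean count of 10 as filter, with just the 2 groups fitted or without the 3 KO libraries with at least 890 Ptger4 counts (70 to 661 genes at an unadjusted p under 0.05), and 0 to 5 when 1 library was left out. At day 39 it was 2, 0 with upper quartile, without those 3 libraries, with just the 2 groups fitted or with either other filter (136 to 643 at an unadjusted p under 0.05), 1 with the replicate block and 0 to 2 when 1 library was left out. The fit of just the groups compared has no interaction. The interaction gave 0 genes, with 1006 at an unadjusted p under 0.05, and 2 with DESeq2 size factors or library size only, 5 with upper quartile and 0 to 8 when 1 library was left out. The cause was not tested.

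Log2 fold changes changed sign for Agr2 at day 0 (-0.29) and Spink4 at day 39 (-2.65) with the replicate block, and for Fcgbp at day 0 (0.087) and Agr2 at day 39 (-2.25) without the 3 libraries. Leaving out 1 library gave -1.69 to 0.042 for Fcgbp and -1.36 to 1.01 for Spink4 at day 0, and -2.24 to 3.66 for Agr2 and -8.14 to 0.18 for Reg3b at day 39. These ranges lack the library that held nearly all WT counts at day 0, number 2 for Fcgbp (1558 of 1559) and number 1 for Spink4 (all 1042), because no fold is given against a group left with 3 counts or fewer; 7 such fits were left out over all members. None of these passed. Of 250 such values, 239 kept direction and side of the threshold. The summed level in WT was 0.704 with upper quartile against 2.10, and 1.15 to 3.45 when 1 library was left out; in KO it was 8.65 to 14.8. The count of members whose days did not overlap in WT was 2, 4 with library size only and 2 to 6 when 1 library was left out. The share of tested genes was not worked out under these alternatives, so the change in the count is not read as a result. They were chosen after seeing the data. So was leaving 1 library out of each member's ratio between days, whose direction turned for Fcgbp (0.679 to 2.25), Agr2 (0.351 to 6.58) and Spink4 (0.997 to 5.71) in KO and for Muc2 (0.373 to 2.62) and Spink4 (0.678 to 1.90) in WT; 10 of these fits left a group with 3 counts or fewer and gave no ratio.

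Deviations from the group means in same-numbered libraries had correlations of -0.016 to 0.068 (15 pairs, 0 above 0.1). Numbers were those of the titles, so day 0 WT library 2 counted as 2, although its header reads 3. With groups of 2 or 3 libraries that differ so widely, this cannot exclude that libraries were paired. Depth allowed a level of 3 counts to be seen at 0.196 to 0.911 CPM.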
